A study of Mus musculus with 6 samples.

Results

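Autophagy delivers portions of cytoplasm to the lysosome inside a double membrane, the autophagosome. A kinase complex built on ULK1 starts the process, a lipid kinase complex built on Beclin 1 marks the site with phosphatidylinositol 3-phosphate, WIPI proteins read that mark, and conjugation enzymes such as ATG7 and ATG5 attach the ubiquitin-like ATG8 proteins (the LC3 and GABARAP proteins) to the growing membrane. In marrow stromal cells autophagy is known for its part in stress survival and in the balance between bone and fat formation. The 10 genes described here, chosen by symbol, cover each of these steps: the kinase gene Ulk1, the Beclin 1 gene Becn1, the phosphoinositide reader Wipi1, the conjugation genes Atg7 and Atg5, and the 5 ATG8 genes Map1lc3a, Map1lc3b, Gabarap, Gabarapl1 and Gabarapl2. All 10 are among the 22984 genes of the deposited table, and all 10 passed the filter on low values (a mean of at least 1 FPKM over the 6 libraries; FPKM is a read count scaled to gene length and library depth), as did 11083 genes in all.

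The libraries were made from total RNA of mouse bone marrow mesenchymal stem cells, 3 of genotype Grx2+/+ and 3 of genotype Grx2-/-. Grx2 is glutaredoxin 2, a mainly mitochondrial thiol oxidoreductase encoded by Glrx2. The series' design text names the cells O-BMSCs without expanding the prefix; the strain, age and sex of the animals and the way the knockout was made are not stated there. Nor do the labels tie a replicate to an animal or a culture of its own. The p-values therefore measure only the spread between these libraries, which may be technical, and the genotype cannot be told apart from the culture. The comparison asks which transcripts differ when Grx2 is lost.

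Glrx2 was listed at 3.57, 3.74 and 3.54 FPKM in Grx2+/+ replicates 1 to 3 and at 0.0046, 0 and 0 FPKM in Grx2-/- replicates 1 to 3, which fits the labels. Depth was 40797879 to 41794919 reads per library, and Grx2+/+ replicate 2 and Grx2-/- replicate 1 stood furthest from their groups (chi-square per tested gene of 10.8 to 27.9 against the other libraries of their groups, and of 4.19 and 4.81 between the remaining pairs). All 12 mesenchymal stromal markers were measured, with a summed level of 6921 to 7936 FPKM in Grx2+/+ and 4496 to 5225 FPKM in Grx2-/- libraries, led by Col1a1 and Col1a2; 5 rose and 6 fell. Markers of other cells moved with genotype as well. The 12 macrophage markers, led by Lyz2 and Cd68, summed to 1542 to 1662 FPKM in Grx2+/+ and 2517 to 3416 FPKM in Grx2-/- libraries, and 10 of them rose. The 12 neutrophil markers, led by S100a8 and S100a9, summed to 892 to 2591 FPKM in Grx2+/+ and 3.18 to 3.71 FPKM in Grx2-/- libraries, with 9 of 9 tested that fell and Ly6g and Retnlg at 0 in all Grx2-/- libraries. The 10 endothelial markers, led by Egfl7 and Cdh5, went from 25.3 to 30.9 FPKM down to 3.33 to 4.17 FPKM (6 of 6 tested fell, with Tie1 and Cldn5 at 0 in Grx2-/-). The 10 osteoblast markers, led by Spp1 and Alpl, went from 1409.5 to 1571 FPKM down to 619 to 655 FPKM (7 of 7 tested fell), and the 6 osteoclast markers, led by Ctsk and Mmp9, from 121 to 147 FPKM down to 73.7 to 84.2 FPKM (3 of 3 tested fell, with Calcr at 0 in Grx2-/-). Lymphoid and erythroid markers, led by Cd79b and Nkg7 and by Hba-a1 and Hbb-bs, stayed at or under 2.05 and 0.379 FPKM in sum. In such bulk libraries fewer cells of a type and less RNA per cell cannot be told apart, and the part of these cell types in the autophagy results was not tested.

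Among the 10 genes, 4 were higher and 4 lower in Grx2-/- libraries and 2 did not pass the test (limma with trend on log2(FPKM + 1), two-sided, Benjamini-Hochberg adjusted p under 0.05 over all 11083 genes). The genes that rose were Atg7, Map1lc3a, Gabarapl1 and Gabarapl2. The genes that fell were Wipi1, Ulk1, Becn1 and Map1lc3b, and those that did not pass were Gabarap and Atg5. Across all genes tested 67.4% passed, 42.7% higher and 24.6% lower, so 8 of 10 is near the background and says nothing particular about autophagy genes. The size of the changes was modest. The fold changes ran from -0.54 to 0.51 on the log2 scale with a median of 0.0045, beside a median of 0.085 over all genes tested, and the median size without sign was 0.30 beside 0.24. No gene of the 10 reached 1.5-fold in this fit, whereas 21% of all genes tested passed with that minimum, 13.9% higher and 7.04% lower. Fold changes of genes with low FPKM are compressed by the added 1. Atg7 did reach it on the scale of recovered reads (0.59, voom) and with a pseudocount of 0.01 (0.59), and Wipi1 reached it with median-of-ratios scaling (-0.64), with quantile normalization (-0.68) and without both libraries that stand apart (-0.59). For 8 of the 10 genes the groups of libraries did not overlap, which held for 73.1% of all genes tested.

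**Figure D1:**
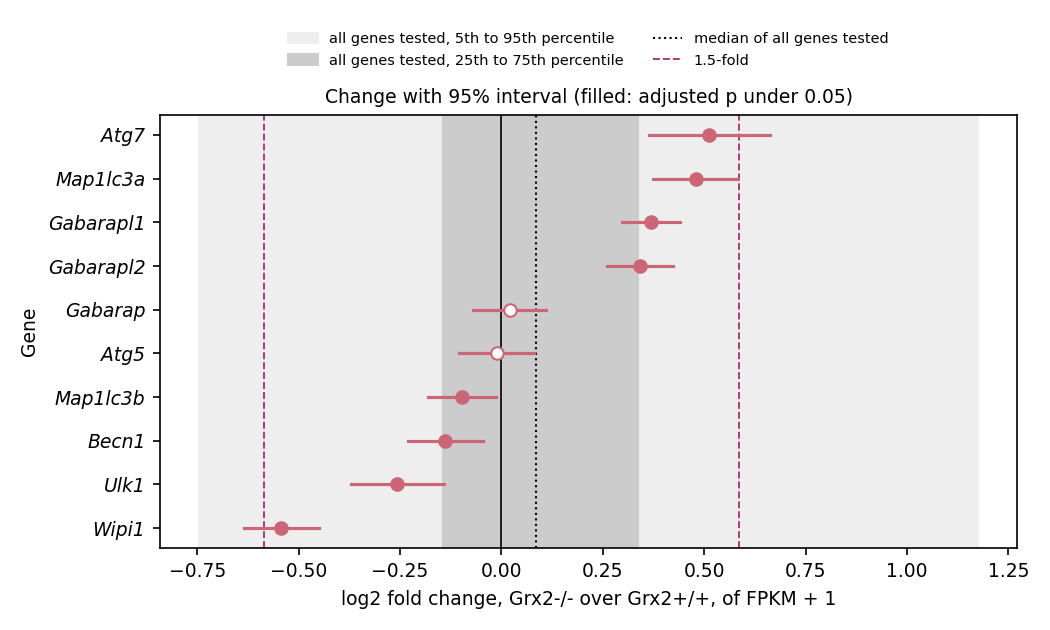
Log2 fold change of FPKM + 1 (x axis) for each gene (y axis), Grx2-/- over Grx2+/+, with its 95% interval from the limma fit over 3 libraries per group; filled points passed adjusted p under 0.05, grey bands show the spread of all 11083 genes tested and dashed lines mark 1.5-fold. Atg7, Map1lc3a, Gabarapl1 and Gabarapl2 lie to the right of 0, Wipi1, Ulk1, Becn1 and Map1lc3b to the left, and all 10 lie within the 5th to 95th percentile band (-0.75 to 1.18).

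The table of RefSeq promoters (GRCm38.p6, 250 bases before to 50 after a gene's start) holds 8 of the 10 genes; Map1lc3a and Becn1 have no entry. Sequence upstream of the start is shown for Wipi1 and Ulk1, which fell, for Gabarapl2, which rose, and for Atg5, which did not pass, so that the promoters of genes with different results can be read side by side. Each is printed 5′ to 3′ on the gene's strand from 250 bases before the start up to the start or to the nearest exon of the GENCODE M21 annotation. Capitals mark the GC box GGGCGG, the letters bound by SP1-type factors, on either strand (its reverse complement is CCGCCC), and the E-box CACGTG, the core of the CLEAR element that TFEB and TFE3 bind. The Wipi1 stretch is chr11:109611433-109611639 on the minus strand and lies between exons of a GENCODE transcript that starts further upstream. The Ulk1 stretch is chr5:110810098-110810331 on the minus strand, the Gabarapl2 stretch chr8:111940453-111940702 on the plus strand and the Atg5 stretch chr10:44268089-44268338 on the plus strand.
Wipi1: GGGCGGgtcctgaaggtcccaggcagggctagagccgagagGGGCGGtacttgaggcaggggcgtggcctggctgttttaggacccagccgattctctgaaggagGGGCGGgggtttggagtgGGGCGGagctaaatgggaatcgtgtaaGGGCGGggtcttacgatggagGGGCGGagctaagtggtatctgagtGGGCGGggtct
Ulk1: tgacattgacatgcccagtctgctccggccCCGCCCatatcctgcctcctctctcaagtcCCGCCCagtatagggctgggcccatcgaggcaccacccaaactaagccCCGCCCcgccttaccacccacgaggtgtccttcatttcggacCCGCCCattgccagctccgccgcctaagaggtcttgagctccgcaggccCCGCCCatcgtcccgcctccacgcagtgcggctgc
Gabarapl2: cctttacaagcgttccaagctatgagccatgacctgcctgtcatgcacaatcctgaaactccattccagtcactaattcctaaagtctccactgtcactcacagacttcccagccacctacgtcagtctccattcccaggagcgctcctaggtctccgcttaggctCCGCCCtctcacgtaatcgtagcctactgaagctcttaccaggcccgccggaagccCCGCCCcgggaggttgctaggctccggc
Atg5: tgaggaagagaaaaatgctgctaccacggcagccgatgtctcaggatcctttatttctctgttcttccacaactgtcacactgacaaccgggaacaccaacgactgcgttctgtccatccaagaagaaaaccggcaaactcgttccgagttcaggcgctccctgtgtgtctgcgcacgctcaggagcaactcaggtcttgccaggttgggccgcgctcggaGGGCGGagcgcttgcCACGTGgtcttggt

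In the whole window of 300 bases Wipi1 had 9 GC boxes, Ulk1 had 5, and Gabarapl2 and Gabarapl1 had 2 each. Atg5 and Map1lc3b had 1 each, and Gabarap and Atg7 had 0. The first entry listed for each gene was used. Annotated exon began after 23 bases of the Gabarap window and at the very first base of the Gabarapl1 window. It began after 173 bases for Map1lc3b, 207 for Wipi1 and 234 for Ulk1. The counts of all these genes thus cover exon sequence and depend on the start used. Not all of the 9 GC boxes of Wipi1 lie in the printed stretch. At least 1 GC box was found in 35.7% of the 32851 promoters in the table, at least 5 in 2.71% and at least 9 in 0.125%. The GC box was searched for after the sequences had been read. Wipi1 and Ulk1, the richest in GC boxes, were both lower in Grx2-/- libraries, which describes 2 genes only. Map1lc3b, also lower, had 1 GC box, fewer than Gabarapl1 and Gabarapl2, which rose. CACGTG occurred 1 time in Atg5 and 1 time in Atg7 and in 7.15% of all promoters; the Atg7 entry belongs to a start inside the gene. The longer core of the CLEAR element, TCACGTGA, which contains CACGTG, was in 0 of the 8 and in 0.974% of all promoters. The FOXO motif GTAAACA was in 0 of the 8 (3.65% of all), and TGACNNNGC, the core of the antioxidant response element, was in Map1lc3b only (12.4% of all). A match is a run of letters and no measured binding site.

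Wipi1 and Atg7 had the largest changes among the 10, Wipi1 ahead on the log2(FPKM + 1) scale and Atg7 ahead by the ratio of mean FPKM (1.505 against 0.680), with a pseudocount of 0.1 or 0.01 and with voom. WIPI1 is a propeller protein that binds phosphatidylinositol 3-phosphate on the forming autophagosome. Wipi1 was at 51.0, 47.8 and 51.3 FPKM in Grx2+/+ replicates 1 to 3 and at 34.7, 33.0 and 34.3 FPKM in Grx2-/- replicates 1 to 3. Every Grx2-/- library was below every Grx2+/+ library. The mean fell from 50.04 ± 1.90 to 34.0 ± 0.91 FPKM (SD, n = 3 each), a log2 fold change of -0.54 ± 0.040 (SE; limma adjusted p = 8.27e-06). By size without sign this change was larger than 77.0% of those of all genes tested.

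Ulk1 encodes the serine-threonine kinase that starts autophagosome formation and is inhibited by mTORC1. Ulk1 was at 7.84, 7.29 and 7.30 FPKM in Grx2+/+ and at 6.23, 5.87 and 6.17 FPKM in Grx2-/- libraries. The groups did not overlap, and Grx2+/+ replicate 1 was the highest. The log2 fold change was -0.26 ± 0.049 (limma adjusted p = 0.00206).

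Becn1 encodes Beclin 1, the scaffold of the autophagy-specific lipid kinase complex. Becn1 was at 36.9, 37.8 and 36.9 FPKM in Grx2+/+ and at 35.1, 32.2 and 33.9 FPKM in Grx2-/- libraries. The difference was small but the groups did not overlap, with Grx2-/- replicate 1 nearest to the Grx2+/+ libraries. The log2 fold change was -0.14 ± 0.040 (limma adjusted p = 0.0148), and in the GENCODE M21 annotation of GRCm38 43.9% of the exon bases of Becn1 overlap Cntd1 on the other strand. Cntd1 was listed at no more than 0.153 FPKM in any library. Another 6 genes have transcripts that match a Becn1 transcript at 90% identity or more over 163 to 182 bases. Among them are Mpv17 (up to 23.7 FPKM) and Upf3a (up to 15.2 FPKM). How reads from shared or similar stretches were counted is not stated, so the level of Becn1 is uncertain.

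Atg7 and Atg5 act in the same conjugation pathway and gave different results. ATG7 is the E1-like enzyme that activates both ATG12 and the ATG8 proteins, and ATG5 is joined to ATG12 in the E3-like complex. Atg7 was at 4.90, 5.32 and 5.80 FPKM in Grx2+/+ and at 7.65, 8.01 and 8.43 FPKM in Grx2-/- libraries. All Grx2-/- libraries were above all Grx2+/+ libraries, although Atg7 also varied most within Grx2+/+ (coefficient of variation 8.42%). The log2 fold change was 0.51 ± 0.064 (limma adjusted p = 0.000191), and the ratio of mean FPKM was 1.505. Atg5 was at 13.4, 14.1 and 13.3 FPKM in Grx2+/+ and at 13.5, 13.4 and 13.6 FPKM in Grx2-/- libraries. The groups overlapped, with a log2 fold change of -0.012 and a 95% interval of -0.10 to 0.081 (limma adjusted p = 0.811). Atg5 passed as lower with median-of-ratios scaling (-0.11, limma adjusted p = 0.0324) and with quantile normalization (-0.15, limma adjusted p = 0.00665).

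**Figure D2:**
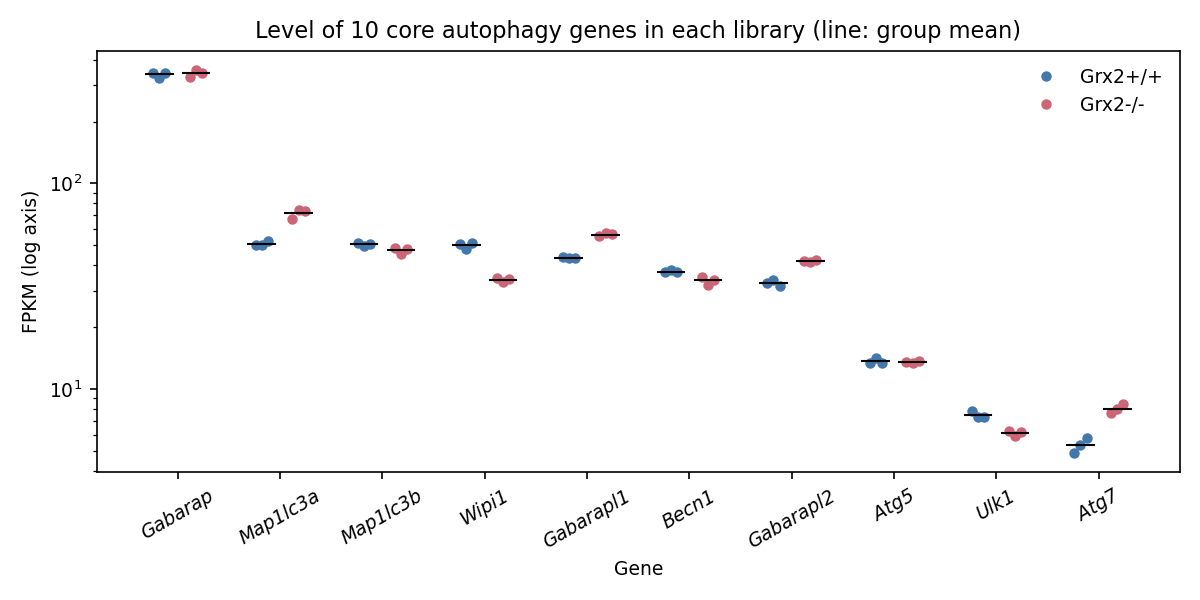
FPKM on a log axis (y) for each of the 10 genes (x), ordered by mean level in Grx2+/+; points are single libraries, blue for Grx2+/+ and red for Grx2-/-, and black lines are group means. Gabarap is the highest in both genotypes at 327 to 357 FPKM, and the groups overlap only for Gabarap and Atg5.

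The 5 ATG8 genes encode the proteins that are lipidated on the autophagosome membrane and bind cargo receptors. The MAP1LC3 proteins are usually tied to membrane growth and the GABARAP proteins to closure and fusion. Of these genes 3 rose, Map1lc3b fell and Gabarap did not pass, beside 42.7% higher and 24.6% lower over all genes tested. Map1lc3a was at 50.4, 50.1 and 52.3 FPKM in Grx2+/+ and at 66.9, 74.1 and 73.4 FPKM in Grx2-/- libraries. It was higher in every Grx2-/- library, least so in replicate 1, with a log2 fold change of 0.48 ± 0.045 (limma adjusted p = 3.66e-05). Map1lc3b, which encodes LC3B, the protein most often followed in autophagy assays, was at 51.5, 49.5 and 50.9 FPKM in Grx2+/+ and at 48.6, 45.5 and 47.7 FPKM in Grx2-/- libraries. Its groups did not overlap, but the lowest Grx2+/+ and the highest Grx2-/- library lay close together. The log2 fold change of Map1lc3b was -0.097 ± 0.037 (limma adjusted p = 0.0445). The call of Map1lc3b was lost without Grx2+/+ replicate 1 or 3 or without Grx2-/- replicate 2 or 3 (limma adjusted p = 0.132, 0.123, 0.130 and 0.0884), and with voom, no filter or no trend (0.0502, 0.0564 and 0.0797).

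Gabarapl1 and Gabarapl2 rose by similar amounts. Gabarapl1 was at 44.0, 43.2 and 43.2 FPKM in Grx2+/+ and at 55.3, 57.3 and 56.7 FPKM in Grx2-/- libraries, a log2 fold change of 0.37 ± 0.031 (limma adjusted p = 1.84e-05). Every Grx2-/- library was above every Grx2+/+ library, and this gene varied least within Grx2+/+ (coefficient of variation 1.12%). Gabarapl2, which encodes the protein also called GATE-16, was at 32.9, 33.8 and 31.8 FPKM in Grx2+/+ and at 41.9, 41.4 and 42.3 FPKM in Grx2-/- libraries, a log2 fold change of 0.34 ± 0.035 (limma adjusted p = 5.58e-05). Its groups did not overlap either. In the GENCODE transcripts 6 processed pseudogenes match Gabarapl2 at 90% identity or more over at least 150 bases. Its reads can therefore match copies as well, and its level is uncertain. None of the 6 symbols is listed in the deposited table. An RNA of unknown function on the other strand, 1700101I11Rik, overlaps 28.3% of the exon bases of Gabarapl1 and was listed at no more than 0.186 FPKM.

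Gabarap was far above its relatives. It was at 345, 327 and 345 FPKM in Grx2+/+ and at 331, 357 and 344 FPKM in Grx2-/- libraries. The groups overlapped, and the log2 fold change was 0.021 with a 95% interval of -0.070 to 0.11 (limma adjusted p = 0.658). Its sign turned with median-of-ratios scaling (-0.081), with quantile normalization (-0.035) and without Grx2+/+ replicate 2 (-0.0046) or Grx2-/- replicate 2 (-0.0062), and it did not pass in any of these.

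Because the 5 ATG8 genes moved unequally, their mix differed between the genotypes. The summed level of the family was 524, 504 and 523 FPKM in Grx2+/+ and 544, 575 and 564 FPKM in Grx2-/- libraries. Gabarap held 65.6% ± 0.54 of that sum in Grx2+/+ and 61.3% ± 0.64 in Grx2-/- (SD, n = 3 each). Map1lc3a held 9.85% ± 0.21 in Grx2+/+ and 12.7% ± 0.38 in Grx2-/-, while Map1lc3b held 9.79% ± 0.056 and 8.43% ± 0.51. Both LC3 genes thus had close to equal shares in Grx2+/+, and Map1lc3a was ahead in each Grx2-/- library. Gabarapl1 went from 8.41% ± 0.15 to 10.1% ± 0.10 and Gabarapl2 from 6.35% ± 0.32 to 7.46% ± 0.26. The level of Gabarapl2, which is uncertain as described above, enters the sum behind every share. These shares are a description, with no test. A share within a library does not change when a common factor scales that library, as in median-of-ratios scaling. Quantile normalization is not such a factor, and shares after it were not computed.

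**Figure D3:**
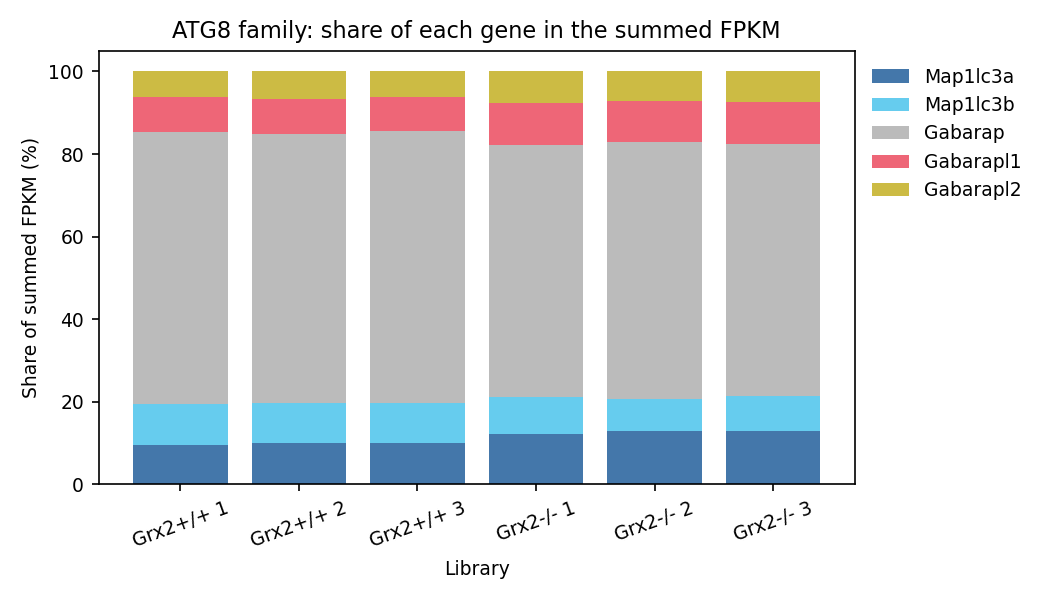
Share of each ATG8 gene in the summed FPKM of the 5 genes (y axis, %) in each of the 6 libraries (x axis); the colours of each bar stand for the genes and add to the whole. Gabarap takes 60.9% to 65.9% of every bar, and the Map1lc3a part averages 9.85% in Grx2+/+ and 12.7% in Grx2-/- libraries.

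FPKM is scaled to gene length, so levels can be set in order between genes. This does not remove the uncertainty in the levels of Becn1 and Gabarapl2 described above, so their places are uncertain too. In Grx2+/+ the order of mean FPKM was Gabarap, Map1lc3a, Map1lc3b, Wipi1, Gabarapl1, Becn1, Gabarapl2, Atg5, Ulk1 and Atg7. The ranges of Map1lc3a, Map1lc3b and Wipi1 overlapped from neighbour to neighbour (50.1 to 52.3, 49.5 to 51.5 and 47.8 to 51.3 FPKM), and no other neighbours overlapped. In Grx2-/- the order was Gabarap, Map1lc3a, Gabarapl1, Map1lc3b, Gabarapl2, Wipi1, Becn1, Atg5, Atg7 and Ulk1, and only Wipi1 and Becn1 overlapped (33.0 to 34.7 and 32.2 to 35.1 FPKM). The trio of Map1lc3a, Map1lc3b and Wipi1 that shared a level in Grx2+/+ was thus spread over 71.4, 47.3 and 34.0 FPKM in Grx2-/-. Mean reads per library ran from 1197 for Atg7 to 15804 for Gabarap, so counting alone gives a coefficient of variation of 2.89% for Atg7 and 0.795% for Gabarap at these means, and more in libraries with fewer reads.

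The genes with profiles most like Atg7 over the 6 libraries, by the root mean square difference of centred log2(FPKM + 1) values among 10776 named genes, were Stambpl1 (0.036), Cinp (0.037) and H2-T22 (0.038). Those most like Wipi1 were Zfp516 (0.021), Snx7 (0.022) and Bivm (0.023). With 2 genotypes this measure mostly finds genes with an equal difference between them, such as Snx7, which went from 65.9 to 45.5 FPKM.

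Wider lists of the pathway, written from textbook knowledge and including the 10 genes, held 96 genes, of which 92 passed the filter. Without the 10 genes 34 of 82 rose, 11 fell and 37 did not pass, with a median log2 fold change of 0.091 beside 0.085 for all genes tested. Scaling by median-of-ratios left 23 higher and 22 lower, and after quantile normalization the counts were 21 higher and 27 lower. Over all genes tested the 4737 higher and 2728 lower calls became 3699 and 3670 with median-of-ratios scaling and 3413 and 3945 with quantile normalization, with the median of all genes going from 0.085 to -0.0020 and -0.026. Small changes near 0.1 therefore depend on the scaling.

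In the ULK kinase complex 2 of 5 genes fell and 3 did not pass. Over all genes tested 67.4% passed and 24.6% were lower. The change in this list was led by Rb1cc1, which encodes FIP200, the scaffold that holds the kinase. Rb1cc1 was at 12.3, 13.8 and 13.2 FPKM in Grx2+/+ and at 5.50, 7.95 and 7.22 FPKM in Grx2-/- libraries, a log2 fold change of -0.85 ± 0.11 (limma adjusted p = 0.000239). The groups were well apart, with Grx2-/- replicate 1 the lowest, and the change was -0.68 without both libraries that stand apart. Atg13, Ulk2 and Atg101, the other subunits and the second kinase, had values of -0.090, -0.095 and 0.065; with either scaling Atg13 and Ulk2 passed as lower and the sign of Atg101 turned.

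Of 8 tested genes of the lipid kinase complexes and their regulators 4 rose, 2 fell and 2 did not pass. Over all genes tested 42.7% were higher and 24.6% lower. The counts of this list were 1 higher and 2 lower after median-of-ratios scaling, and 1 and 3 after quantile normalization. Nrbf2, which encodes a regulatory subunit of the complex of ATG14 and Beclin 1, was at 10.4, 9.48 and 9.96 FPKM in Grx2+/+ and at 4.65, 5.64 and 5.06 FPKM in Grx2-/- libraries. Its groups were well apart, and its log2 fold change of -0.84 ± 0.068 (limma adjusted p = 1.42e-05) exceeded in size that of its partner Becn1. Pik3c3, the catalytic subunit VPS34, rose (0.34 ± 0.054), as did Uvrag (0.17) and Ambra1 (0.12). With either scaling Uvrag and Ambra1 did not pass, and the sign of Ambra1 turned with quantile normalization (-0.0018). Of 10 tested genes for phosphoinositide binding and lipid supply 1 rose, 4 fell and 5 did not pass, with a median of -0.067, beside the same background shares and a median of 0.085. Wipi2, the closest relative of Wipi1 in this step, was at -0.093 ± 0.034 (limma adjusted p = 0.0405), and the lipid transfer gene Atg2b at -0.27, the scramblase gene Atg9a at -0.11 and Tmem41b at 0.18. The calls of Wipi2, Atg9a and Tmem41b were lost under several alternatives.

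**Figure D4:**
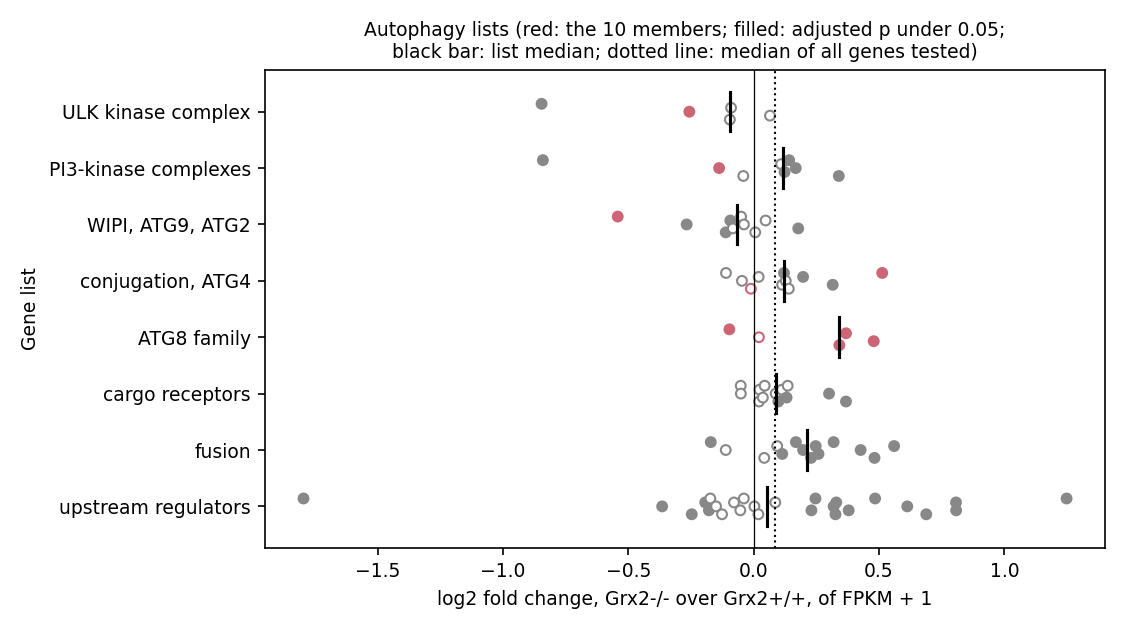
Log2 fold change of FPKM + 1 (x axis), Grx2-/- over Grx2+/+, of each tested gene in 8 autophagy lists (y axis); red points are the 10 genes and grey points the others, filled where adjusted p was under 0.05, black bars are list medians and the dotted line is the median of all genes tested. Rb1cc1 (-0.85) and Nrbf2 (-0.84) lie to the left of the other genes in the top 2 lists, and most fusion genes lie to the right of 0.

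Among the conjugation enzymes and ATG4 proteases 4 of 11 rose, 0 fell and 7 did not pass. Over all genes tested 42.7% were higher and 24.6% lower. The counts of this list were 2 higher and 1 lower after median-of-ratios scaling, and 2 and 2 after quantile normalization. Besides Atg7 the genes that rose were Atg12 (0.32 ± 0.046, limma adjusted p = 0.000474), the ubiquitin-like partner of ATG5, Atg3 (0.12), the E2-like enzyme for ATG8 proteins, and Atg16l2 (0.20). Atg16l1 was at 0.13 and did not pass. With either scaling Atg3 and Atg16l2 did not pass, and the sign of Atg3 turned with quantile normalization (-0.025). Of 13 cargo receptors 4 rose, 0 fell and 9 did not pass, beside the same shares over all genes. With either scaling 2 of them were higher and 2 lower. Wdfy3 (0.37) and Tex264 (0.30), a receptor for the endoplasmic reticulum, had the smallest p. Sqstm1, which encodes the receptor p62, was at 75.2 ± 2.05 FPKM in Grx2+/+ and 82.5 ± 0.43 in Grx2-/- (0.13 ± 0.032, limma adjusted p = 0.00665), and neither it nor Rtn3 (0.098) passed with either scaling; the sign of Rtn3 turned with both (-0.0012 and -0.014).

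For fusion of the autophagosome with the lysosome 10 of 14 genes rose, 1 fell and 3 did not pass, with a median of 0.21, beside 42.7% higher, 24.6% lower and a median of 0.085 over all genes tested. Whether the list differs from other genes was not tested. The counts were 7 higher and 2 lower after median-of-ratios scaling, against 6 and 2 after quantile normalization. Plekhm1 (0.56 ± 0.059), an adaptor between RAB7 and the tethering complex, Vps18 (0.48) and Vps16 (0.32), subunits of that complex, and Vamp8 (0.43), a lysosomal SNARE, rose in each of the scaling alternatives too. The macrophage markers, which had a median log2 fold change of 0.80 in the same libraries, moved in the direction of this list, and their part was not tested. Among 26 tested upstream regulators 12 rose, 5 fell and 9 did not pass, near the 42.7% higher and 24.6% lower of all genes. The counts of these regulators were 12 higher and 11 lower after median-of-ratios scaling, and 11 and 11 after quantile normalization. Ddit4, an inhibitor of mTORC1, was lower (-1.80 ± 0.081), while Sesn1 (0.81), Fnip2 (0.69) and Mitf (0.81), a relative of TFEB, were higher. The value of Mitf, which went from 0.669 to 1.92 FPKM, is compressed by the added 1 and was 1.40 with a pseudocount of 0.1.

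**Figure D5:**
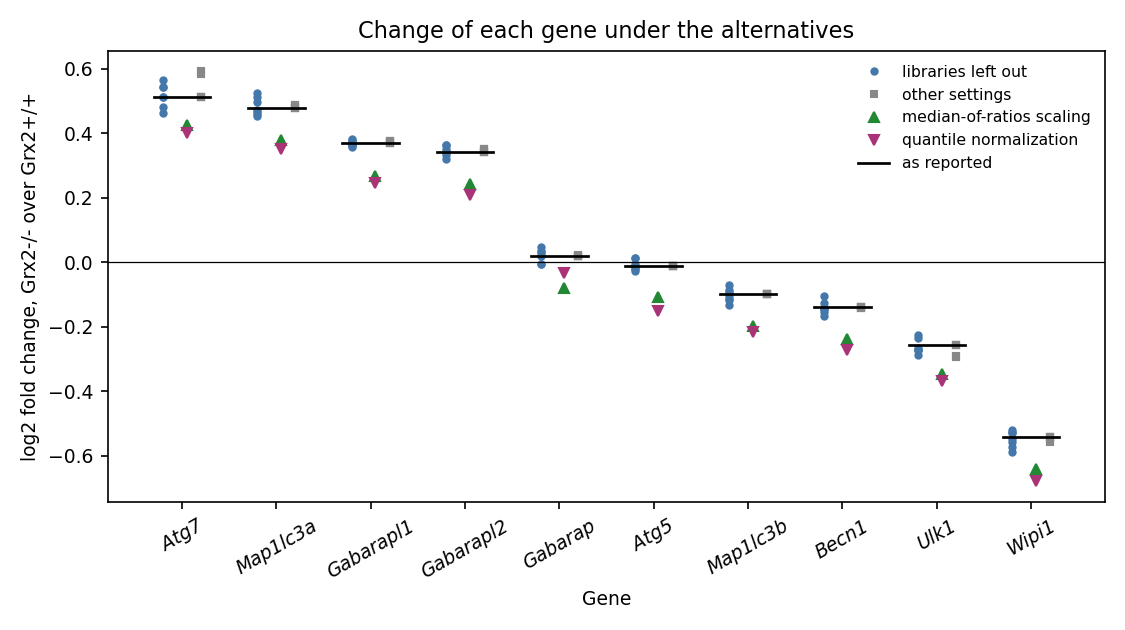
Log2 fold change, Grx2-/- over Grx2+/+ (y axis), of each of the 10 genes (x axis) as reported (black line), with libraries left out (blue points), with other settings (grey squares) and after the median-of-ratios or quantile scalings (triangles). Both scalings shift every gene down, taking Gabarap below 0 (-0.081 and -0.035), while Atg7, Map1lc3a, Gabarapl1 and Gabarapl2 stay above 0 and Wipi1, Ulk1, Becn1 and Map1lc3b below it.

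Without the 2 libraries that stand apart the counts were again 4 higher and 4 lower. The log2 fold changes were then 0.54 for Atg7, 0.51 for Map1lc3a, 0.38 for Gabarapl1, 0.36 for Gabarapl2, 0.023 for Gabarap, 0.013 for Atg5, -0.13 for Map1lc3b, -0.15 for Becn1, -0.29 for Ulk1 and -0.59 for Wipi1. Only Atg5, which did not pass in either fit, changed sign.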

How the data were processed

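The authors deposited FPKM values (reads scaled to gene length and library depth) with 1 column per library; per the submitters' processing notes HISAT2, HTSeq, R 3.2.0 and build GRCm39 were used, with settings, annotation and strand use not given in the sources used here. FPKM does not correct for a shift in composition. The values were whole multiples of what 1 read is worth for 22984 genes (tolerance 1e-06), which gave depth and reads. Genes averaging at least 1 FPKM entered a limma fit (version 3.58.1, R 4.3.3; lmFit, then eBayes with trend) of log2(FPKM + 1), two-sided, with Benjamini-Hochberg adjustment. On simulated reads (10701 genes) the fit called 11 unchanged genes. It recovered 48 of the 50 genes set to a 1.25-fold change, and each of the 48 set to 1.5-fold. These reads took their means and a single dispersion (0.00109) from the Grx2+/+ libraries, with few genes changed. In the data 67.4% of genes passed, and the spread of the Grx2-/- libraries was not simulated. The simulated counts therefore do not give error rates for the data.

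Named genes are the 10 members, Glrx2, up to 4 further genes per list with the smallest p, the 2 highest markers per list and the 3 nearest profiles of 2 members. Outside this rule, Ly6g, Retnlg, Tie1, Cldn5 and Calcr were named after their values were seen, for being at 0, and Cntd1, 1700101I11Rik, Mpv17 and Upf3a for sharing exon bases or sequence with a member. The members, lists and alternatives were chosen with earlier results of these data known. Similar transcripts were sought with blastn 2.17.0; promoters come from RefSeq (GRCm38.p6), and no coordinates of the deposited build are used. Figures were drawn with matplotlib 3.10.9. The alternatives changed the pseudocount, the filter, the scaling, the variance model, the call rule, the libraries, or used voom or the replicate number as a block.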

Additional observations from a re-analysis of the deposited data

How the results depend on the processing

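Over the 19 alternatives the 10 genes gave 4 that rose in each setting without a fold minimum, and 3 to 5 that fell, or 2 that fell at adjusted p under 0.01 (Map1lc3b and Becn1 lost). With a 1.5-fold minimum 0 rose and 0 fell, while 1545 and 780 of all genes tested and 5 and 3 of the wider lists did. Outside the call rules, Atg7, Map1lc3a, Gabarapl1, Gabarapl2, Wipi1, Ulk1 and Becn1 kept their direction and their call. Gabarap turned to -0.081 with median-of-ratios scaling, -0.035 with quantile normalization and -0.065 relative to the median of all genes tested (an alternative added after the data were seen), and to -0.0046 and -0.0062 without Grx2+/+ replicate 2 or Grx2-/- replicate 2, in a range up to 0.048 over the libraries left out. Atg5 ranged from -0.027 to 0.014 with libraries left out, and turned to 0.014 without Grx2+/+ replicate 2 and 0.013 without that library and Grx2-/- replicate 1. For the wider lists the 34 that rose and 11 that fell became 23 and 22 with median-of-ratios scaling, 21 and 27 with quantile normalization, and 25 and 5 at adjusted p under 0.01; with 1 library left out 27 to 33 rose and 6 to 14 fell. The 6 came without Grx2+/+ replicate 1 or 3 or Grx2-/- replicate 3. Reversals among named genes of these lists were Rtn3 (-0.0012 and -0.014), Atg101 (-0.027 and -0.059) with median-of-ratios scaling and quantile normalization, Atg3 (-0.025) and Ambra1 (-0.0018) with quantile normalization, and Atg101 (-0.00035) without Grx2-/- replicate 2, in a range up to 0.15 with libraries left out. The cause was not tested.

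Whether the replicate numbers pair the libraries is not settled. Deviations of same-numbered libraries correlated at 0.107, 0.124 and 0.020 for replicates 1 to 3. In both genotypes replicates 1 and 2 correlated best with their own number, and replicate 3 did not. With the replicate block 4771 of all genes rose and 2791 fell, against 4737 and 2728, and 4 and 4 of the 10 genes. Depth limits little here, since each of the 10 genes had at least 867 reads in each library.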
